A study of Drosophila melanogaster with 2 samples.

Results

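The regions described are peaks of an Apterous chromatin map that lie between genes and away from promoters. A peak of the conservative list was kept when its summit fell outside every annotated gene, whatever the biotype apart from transposable elements, and over 500 bp from every annotated start site. By this rule 476 of 3184 conservative peaks on the assembled chromosomes of the dm6 genome were kept, or 14.9% (exact binomial 95% interval 13.7 to 16.2). The map came from chromatin immunoprecipitation followed by sequencing (ChIP-seq) in Drosophila melanogaster of the strain ap-GFP, whose insertion makes an ap-eGFP fusion protein, with an antibody against GFP. The antibody field of the labels names ap itself. The material was whole embryos, 0 to 24 h old, and a library thus mixes all cell types of the embryo, and a strong peak in few cells cannot be told apart from a weaker peak in many. Chromatin was sheared by sonication to 200 to 800 bp. There was 1 group, of 2 samples labelled biological replicates and drawn from separate biosamples of 1 strain, and no other condition to compare. No control immunoprecipitation was analysed here, and because the files hold peaks without read numbers the depth is unknown. Intervals below therefore cover the counting of peaks only.

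Apterous is a LIM homeodomain transcription factor, known for setting dorsal identity in the wing and for acting in muscle and neuron fates. Homeodomain proteins of this kind bind short AT-rich sites with the core TAATTA. Intergenic DNA away from promoters is where many developmental enhancers, insulators and Polycomb response elements of Drosophila lie, and such an element can act on either neighbouring gene or on a farther one. A peak is therefore named here by the genes on both of its sides, and neither gene is taken to be its target.

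The reference sequence at the 3 strongest summits on the arms from which sequence is printed, members 2, 3 and 4 in order of signal, is shown first. None of the 20 strongest members had the homeodomain core TAATTA within 50 bp. Among all 476 members 9.87% had it, and among all conservative peaks 11.4%. With shares that low, its absence from 20 members is not read as a trait of the strongest. Each window holds 101 bases centred on the summit, read from the RefSeq release 6 genome, which is the same assembly as dm6, and nothing is in capitals because TAATTA does not occur. The windows differ widely in composition.
CR45641 to CR45643, dm6 chr3R:16222457-16222557, plus strand: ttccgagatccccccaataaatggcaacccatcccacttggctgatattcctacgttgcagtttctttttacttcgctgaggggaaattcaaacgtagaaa
COX7AL2 to CG31668, dm6 chr2L:2202346-2202446, plus strand: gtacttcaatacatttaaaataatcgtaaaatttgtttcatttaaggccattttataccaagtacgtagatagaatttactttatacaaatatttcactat
C15 to sp3, dm6 chr3R:21520314-21520414, plus strand: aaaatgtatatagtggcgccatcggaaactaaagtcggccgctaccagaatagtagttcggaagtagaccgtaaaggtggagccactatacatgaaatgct
The first lay between the long noncoding RNA genes CR45641 and CR45643, 888 bp upstream of the latter, with tara, a cell cycle and trithorax group gene, as the next protein-coding gene. Its signal was 839 in the pooled list, 407 in replicate 1 and 446 in replicate 2. The second, between COX7AL2 and CG31668, had a signal of 650 pooled, 329 in replicate 1 and 317 in replicate 2. The third lay between C15, a homeobox gene of distal leg development, and sp3, with 547 pooled, 233 in replicate 1 and 318 in replicate 2. Their GC content was 44.6%, 22.8% and 44.6%.

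Windows that do hold a core site are shown next, with TAATTA in capitals in the first 4. The last has TATCGATA in capitals, the DNA replication-related element (DRE) known from promoters and domain boundaries. They are the 3 strongest members with TAATTA on the arms from which sequence is printed, a member with 2 sites and the single member with a DRE.
CR45303 to CR45693, dm6 chr2L:14502739-14502839, plus strand: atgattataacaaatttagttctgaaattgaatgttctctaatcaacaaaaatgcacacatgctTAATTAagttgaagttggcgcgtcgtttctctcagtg
by to mura, dm6 chr3R:9534291-9534391, plus strand: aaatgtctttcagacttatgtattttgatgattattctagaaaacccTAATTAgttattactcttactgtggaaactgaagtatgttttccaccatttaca
NijA to CG43245, dm6 chr3L:10738912-10739012, plus strand: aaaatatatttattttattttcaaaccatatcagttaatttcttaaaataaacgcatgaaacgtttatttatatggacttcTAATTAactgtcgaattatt
slf to CR45297, dm6 chr2L:4806265-4806365, plus strand: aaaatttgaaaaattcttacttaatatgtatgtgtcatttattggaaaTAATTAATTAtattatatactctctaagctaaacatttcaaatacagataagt
osp to CG15282, dm6 chr2L:14701625-14701725, plus strand: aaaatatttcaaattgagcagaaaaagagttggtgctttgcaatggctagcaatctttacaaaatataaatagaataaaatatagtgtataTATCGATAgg
The strongest, next to noc, a zinc finger gene of eye and wing development, had a signal of 275, with 133 in replicate 1 and 138 in replicate 2. The member between by and mura had 246 (114 and 131), and the member in the gap from NijA to CG43245 had 196 (71.8 and 106). The member beside slf held 2 overlapping sites and a signal of 70.5 (35.5 and 38.2). The DRE member, between osp and CG15282, had 97.1 (48.2 and 43.2), with the DRE 41 bp from its summit.

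A different word stood out when every 8-letter word within 100 bp of a member summit was counted. Of 25701 such words, counting a word and its reverse complement as the same, that with the greatest excess over 4 flanking windows, centred 800 and 1000 bp to each side, was CACTGAGA, where the excess was the count less the flanking mean, divided by the square root of that mean plus 1. This ordering was made after the data were seen, carries no test, and the word is given no factor's name. The occurrences at the strongest members with the word on the arms from which sequence is printed are shown with CACTGAGA in capitals, on the strand that carries it.
CR45303 to CR45693, dm6 chr2L:14502682-14502735, plus strand: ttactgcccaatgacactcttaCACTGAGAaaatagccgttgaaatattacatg
CR45303 to CR45693, dm6 chr2L:14502808-14502861, minus strand: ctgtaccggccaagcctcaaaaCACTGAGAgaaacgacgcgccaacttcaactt
slp1 to slp2, dm6 chr2L:3832559-3832612, minus strand: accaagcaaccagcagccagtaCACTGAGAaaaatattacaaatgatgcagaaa
CR45937 to CR45936, dm6 chr3L:18236079-18236132, minus strand: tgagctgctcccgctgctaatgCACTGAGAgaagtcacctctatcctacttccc
Cad89D to Gr89a, dm6 chr3R:16497580-16497633, plus strand: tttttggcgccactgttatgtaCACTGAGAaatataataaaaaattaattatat
CR44711 to GCS2alpha, dm6 chrX:21593977-21594030, plus strand: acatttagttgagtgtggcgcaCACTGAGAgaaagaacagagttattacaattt
CR44711 to GCS2alpha, dm6 chrX:21594137-21594190, minus strand: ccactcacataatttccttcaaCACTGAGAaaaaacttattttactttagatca
hng3 to tRNA:Ile-TAT-1-1, dm6 chr3L:762568-762621, minus strand: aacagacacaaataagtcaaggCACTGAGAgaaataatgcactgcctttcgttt
ems to Art9, dm6 chr3R:13914970-13915023, minus strand: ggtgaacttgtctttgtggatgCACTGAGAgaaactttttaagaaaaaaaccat
Most of these windows continue with GAAA or AAAA after the capitals. The member beside noc and the member between CR44711 and GCS2alpha each have 2 occurrences, on opposite strands.

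CACTGAGA lay within 100 bp of 46 of the 476 member summits, 9.66% (interval 7.16 to 12.7), against 5.06% of all 3184 conservative peaks and a mean of 2.5 members in the flanking windows. In eligible sequence, meaning sequence in which a summit could have met the rule, 0.650% of 186266 windows of the same 201 bp held it. Among weaker intergenic peaks of the pooled ranked list that overlapped no thresholded peak, 335 of 34329 had it, 0.976%. The share was 6.09% for peaks in genes away from start sites (interval 4.88 to 7.50) and 2.38% for peaks within 500 bp of a start site (1.63 to 3.34). Because the word was picked for its excess at these same members, their share is raised by that choice and no difference between the classes is read from it.

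The word had a prevailing direction relative to the summit. Of its 50 occurrences at members, 44 had their centre on the 5′ side of the summit along the strand that carries the word, 88.0% (interval 75.7 to 95.5), so that the word read toward the summit. Of the 50, 31 were between 50 and 100 bp away on that side, and the median distance was 59.0 bp. At other peaks, 80 of 85 occurrences were on the 5′ side for peaks in genes and 28 of 32 for promoter peaks. In all 4 members with 2 occurrences, these pointed at the summit from both sides. Of the 50 occurrences, 18 went on with GAAA and 19 with AAAA, in all 74.0%, and the base at position 11, counted from 1 at the C of CACTGAGA, was A in 48.

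A second word, CCACTGT, was placed the opposite way. It was chosen after the leading word because it shares the letters CACTG, and it is shown with CCACTGT in capitals at the 5 strongest members with the word on the arms from which sequence is printed, members 2, 3, 12, 26 and 29 in order of signal, on the strand that carries it.
CR45641 to CR45643, dm6 chr3R:16222559-16222611, plus strand: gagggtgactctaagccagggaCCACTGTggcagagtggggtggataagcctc
COX7AL2 to CG31668, dm6 chr2L:2202284-2202336, minus strand: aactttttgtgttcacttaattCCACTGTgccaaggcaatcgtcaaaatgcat
CR44603 to CR45695, dm6 chr2L:1632879-1632931, plus strand: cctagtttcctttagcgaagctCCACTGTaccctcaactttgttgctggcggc
tRNA:Phe-GAA-1-7 to tal-1A, dm6 chr3R:13800467-13800519, minus strand: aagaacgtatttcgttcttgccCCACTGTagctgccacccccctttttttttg
CR45411 to CR43785, dm6 chr3L:724789-724841, plus strand: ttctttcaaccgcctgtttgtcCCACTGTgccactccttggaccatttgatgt
CR45411 to CR43785, dm6 chr3L:724631-724683, minus strand: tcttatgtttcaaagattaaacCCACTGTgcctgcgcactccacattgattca
It lay within 100 bp of 35 members, 7.35% (interval 5.17 to 10.1), against 10.6% of all conservative peaks, a mean of 13.8 members in the flanking windows and 2.18% of eligible windows. Of its 38 occurrences, 33 were on the 3′ side of the summit, so that it read away from it. The share was 12.8% for peaks in genes (11.1 to 14.7) and 9.36% for promoter peaks (7.86 to 11.0), given as a description since the word was picked on these peaks. These shares also depend on the cut at 100 bp. In bins of 25 bp, occurrences at members were most frequent 112.5 bp past the summit, outside the cut (3.36 per 100 peaks). For peaks in genes (5.51) and promoter peaks (3.57) the highest bin was at 87.5 bp, inside it. Within 150 bp the member share was 12.4%, with no matching share for the other classes, so no difference between classes is read.

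**Figure D1:**
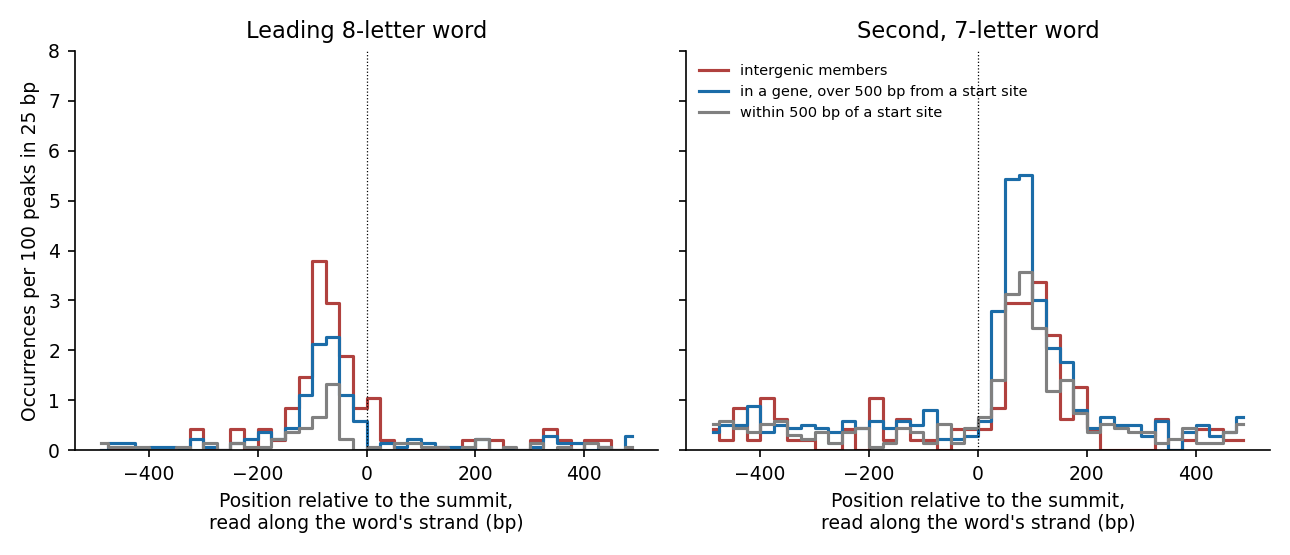
Positions of the 8-letter word CACTGAGA (left) and the 7-letter word CCACTGT (right) relative to the summit, read along the strand that carries the word, as occurrences per 100 peaks in bins of 25 bp, for the 476 intergenic members and the other peak classes. The first word rises to 3.78 per 100 members in the bin centred 87.5 bp before the summit and the second to 3.36 in the bin centred 112.5 bp after it.

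Both words occurred at 1 member, and 80 of the 476 had at least 1 of them, 16.8% (interval 13.6 to 20.5). None of the 20 strongest members had CACTGAGA within 100 bp and 4 had CCACTGT, among them the peaks near tara, at COX7AL2 and near chinmo. Of the 100 strongest members, 7 had CACTGAGA and 13 had CCACTGT. With shares of 9.66% and 7.35% over all members, no contrast between the words is read from 20 peaks. Signals of the 46 members with CACTGAGA ran from 50.3 to 275 with a median of 86.0, against 81.2 for the 430 without it. The median was 106 for members with CCACTGT and 80.2 for members with neither. CACTGAGA members were spread over 46 gaps between genes, 1 in each, and none lay in an annotated transposable element.

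Of the members with CACTGAGA, 3 are described here, chosen after their values were seen and standing for no group of genes. The member between slp1 and slp2, forkhead genes of segmentation, had a signal of 273, with 128 in replicate 1 and 140 in replicate 2. The member between ems, a head gap gene, and Art9 had 140 (60.7 and 78.5). The member between Cad89D and the gustatory receptor gene Gr89a had 173, with 114 in replicate 1 and 62.9 in replicate 2, a wider difference between replicates than at those. In the replicates' own thresholded lists the share of intergenic peaks with the word was 10.4% of 249 for replicate 1 (interval 6.94 to 14.9) and 11.1% of 288 for replicate 2 (7.73 to 15.3).

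Member summits were AT-rich. GC content within 50 bp of the summit was 33.8% ± 9.30 (SD, n = 476 windows), against 40.8% ± 9.76 in 376055 eligible windows of 101 bp, and it was 41.0% in the windows 1000 bp to the right of the same summits and 41.4% to the left. Of the 476 members, 272 were lower in GC at the summit than on both sides. The fall was narrow: in bins of 50 bp the mean was 33.8% on either side of the summit and rose to 45.4% in the bin centred 225 bp to the right, above the level farther out. Peaks in genes shared this shape, with 44.2% in the bin centred 225 bp to the right and 40.6% in that centred 975 bp to the right. Promoter peaks had a mean of 32.6% ± 10.4 (SD, n = 1346) at the summit and stayed below members 225 bp away, with 42.7% to the right, but were above them in the bin centred 475 bp to the right, with 45.2% against 41.7%.

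**Figure D2:**
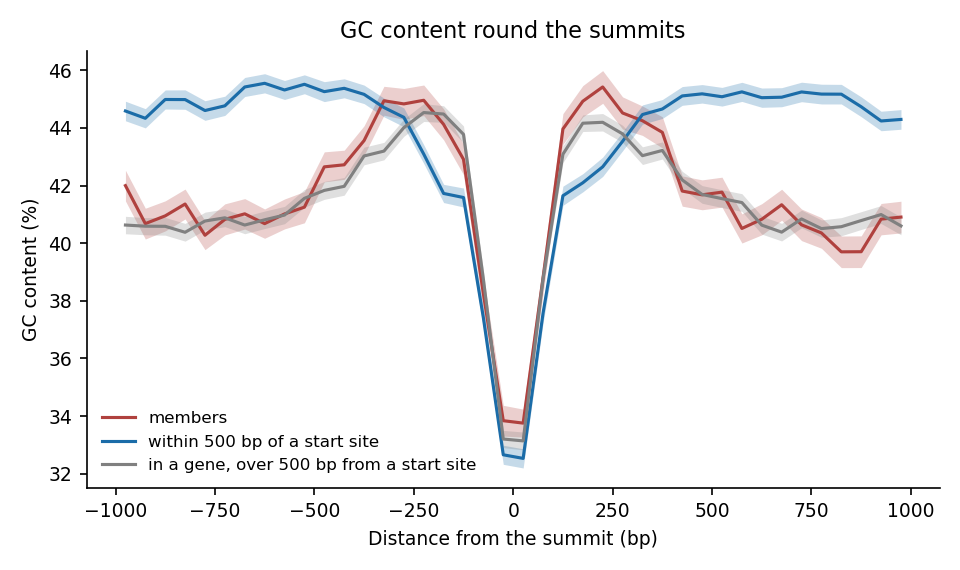
Mean GC content in bins of 50 bp against distance from the summit in bp, for the 476 members, peaks within 500 bp of a start site and peaks in genes. Shading is the standard error over peaks. All 3 classes dip within 100 bp of the summit, members to 33.8%. The members have shoulders near 45% on both sides, and peaks in genes have similar ones, with 44.5% and 44.2% at 225 bp to the left and right.

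The homeodomain core TAATTA was present at a minority of member summits. It lay within 50 bp of 47 of the 476, 9.87% (interval 7.35 to 12.9), against 11.4% of all conservative peaks. The windows 1000 bp to the right held it at 34 members and those to the left at 42. At the 2708 other conservative peaks 315 had it at the summit, 148 to the right and 171 to the left. The difference between these ratios was not tested. Among members with GC content under 25%, 16 of 80 had it (interval 11.9 to 30.4%), and 21.1% of eligible windows in the same GC range did. From 25 to 30% GC the shares were 9.35% of members (interval 4.57 to 16.5) and 14.3% of eligible windows. From 30 to 35% GC they were 13.8% (8.09 to 21.4) and 9.89%, and from 35 to 40% GC they were 4.69% (0.977 to 13.1) and 7.75%. From 40 to 45% GC 1 of 50 members had it, against 5.72% of eligible windows, and above 45% GC 1 of 59, against 2.83%. Of the 6 GC ranges, members were above eligible windows in the range from 30 to 35% alone, and each eligible share lay within the members' interval. The median signal of members with the site was 80.6 and that of members without it 81.6.

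Other counted motifs were also sparse. The DRE was found at 1 member, against 0.974% of all conservative peaks, where 26 of the 31 were promoter peaks. TAATTG, another homeodomain site, lay at 56 members, 11.8%, close to 11.6% of all peaks and to the 52 and 55 in the flanking windows. TAATCC, the site of Bicoid-type homeodomains, lay at 12 members, 2.52% (interval 1.31 to 4.36), against 3.55% of all peaks, and the A tract of 8 bases lay at 32, 6.72%, against 8.01%. The E-box CAGCTG lay at 9 members, 1.89% (interval 0.868 to 3.56), against 3.23% of all peaks, with 20 and 16 in the flanking windows. The CA repeat CACACACA lay at 2 members, against 0.911% of all peaks and 13 and 14 members in the flanking windows. The CAG repeat CAGCAGCAG lay at no member, against 0.157% of all peaks and 0.604% of eligible windows. All motifs were searched on both strands within 50 bp of the summit, and a match is a description of the letters, not of binding.

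Intergenic members were a smaller part of the stronger peaks. They made up 10.6% of the 796 strongest conservative peaks (interval 8.50 to 12.9) and 18.3% of the 796 weakest (15.7 to 21.2). Of the 100 strongest conservative peaks 6 were members. Candidate peaks below the threshold were intergenic more often, 25.3% of 135803, and 21.5% of the strongest 3184 of these (interval 20.1 to 23.0). Per length, members stood at 12.3 per Mb of the 38.6 Mb of eligible sequence, promoter peaks at 73.8 per Mb and peaks in genes at 17.0 per Mb.

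Their signal, which is the authors' value for each peak, had a median of 81.5 with quartiles of 64.0 and 119. The median over all conservative peaks was 93.5, over peaks in genes 87.5 and over promoter peaks 109. Of the 476 members, 170 overlapped thresholded peaks in the own lists of both replicates, 35.7% (interval 31.4 to 40.2), against 48.1% of all conservative peaks. Another 171 overlapped none in either list, 35.9%, against 27.9% of all. Members were thus found separately in both replicates less often than promoter peaks (56.8%, 54.1 to 59.4) and peaks in genes (43.8%, 41.2 to 46.5), with intervals that do not overlap. Signal was lower at members, and its part in that difference was not tested.

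Where both replicates had a ranked peak at a member, their signals were close. This was so for 466 members, and replicate 2 over replicate 1 gave a log2 ratio of 0.03 ± 0.41 (mean ± SD, n = 466 members), with 457 within 2-fold. Across these members rho (Spearman) was 0.715 and r (Pearson, on log2 signals) 0.854, which describe peaks that share their libraries. Over all conservative peaks with both values, 97.7% were within 2-fold and rho was 0.784. Among the 162 members in neither own list with both values, all were within 2-fold and rho was 0.0658. Their medians were 31.1 in replicate 1 and 31.0 in replicate 2, and no member in neither own list had a pooled signal above 99.1. Absence from both lists keeps both values low and in a narrow range, so agreement is not read from the fold difference. The conservative list was itself thresholded on reproducibility, so some closeness between replicates is built in. The pooled signal was close to the sum of the replicates' signals, with a median ratio of 0.990. Of the 476, 21 overlapped another conservative peak, 4.41%, against 4.62% of all. All 8 members with a signal under 20 were weaker than a peak they overlapped, and where such a pair shares a replicate peak its replicate values are the same.

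**Figure D3:**
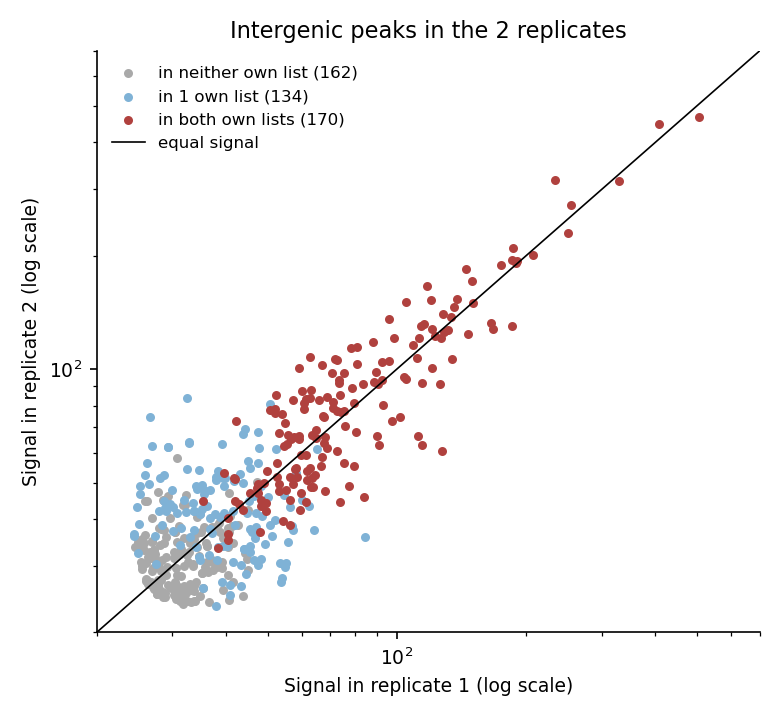
Signal in replicate 2 against signal in replicate 1, both on log scales in the authors' units, for the 466 members with a ranked peak in each. Points are coloured by whether the member overlaps a thresholded peak in neither, 1 or both of the replicates' own lists. The points follow the line of equal signal, and those in both own lists (170) hold the strong end.

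The widest differences between replicates among members thresholded in at least 1 of them were few. The member at 14505081 to 14505376 on 2L, beside noc, had 84.5 in replicate 1 and 35.8 in replicate 2, a log2 ratio of -1.24. A member between Doc2 and CR46451, in the cluster of Dorsocross T-box genes, had 127 and 60.7 (-1.07). In the other direction, a member between CR46444 and CG46443 had 32.5 and 83.8 (1.37), and a member in the gap from CR44363 to CG7560 had 26.7 and 74.5 (1.48). With 2 replicates these values cannot be separated from the spread between samples.

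The 20 strongest members had pooled signals from 280 to 973 and were all thresholded in both replicates' own lists. Their log2 ratios ran from -0.51 to 0.50. The strongest lay on 2R from 13035226 to 13035449, between Su(z)2, a Polycomb group gene, and CG13323. Its summit was 27430 bp past the end of Su(z)2 and 11915 bp from the nearest start site, that of CG13323. Its signal was 973 pooled, 505 in replicate 1 and 468 in replicate 2, rank 10 of all conservative peaks. The peak between blw, which encodes the alpha subunit of ATP synthase, and CycB, the cyclin B gene, followed the 3 printed above with 519 pooled, 255 in replicate 1 and 273 in replicate 2. That peak sat in a gap of 1340 bp where both genes end.

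Next came the member at 11418301 to 11418599 on 3L, between CR44363 and CG7560, with 482 pooled and 251 and 230 in the replicates. The member on 2R between CR44761 and Ppa, an F-box gene, had 408 (207 and 201), and the next protein-coding gene on its other side was RYBP, a Polycomb-associated gene. The member between Sol1 and Cyp9f2, a cytochrome P450 gene, had 393 (187 and 209) and lay 1299 bp upstream of a start site of DNAlig3, a DNA ligase gene. The replicates of these 3 members differed by less than 30 units of signal. The member upstream of foxo, the forkhead factor of insulin signalling, had 383 (189 and 192), the member at CG10479 381 (190 and 193) and the member between RasGAP1 and CG10809 378 (185 and 195).

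Of the remaining members of the 20, 3 lay in 1 gap beside chinmo, a BTB zinc finger gene of neuronal temporal identity, with signals of 370, 321 and 280. The others lay between CG43131 and RabGGTa (319), CG3149 and CR42794 (309), jp, the junctophilin gene, and CR44149 (300.005), CR45355 and CG31816 (294), CR45737 and sty, the sprouty gene that restrains receptor tyrosine kinases (288), and CG43401 and CG43402 (283). A noncoding gene flanked 12 of the 20 on at least 1 side. The lowest log2 ratio of the 20 was at CG3149, with 186 in replicate 1 and 131 in replicate 2. The mean GC content at the 20 summits was 32.0% ± 9.11 (SD, n = 20).

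**Figure D4:**
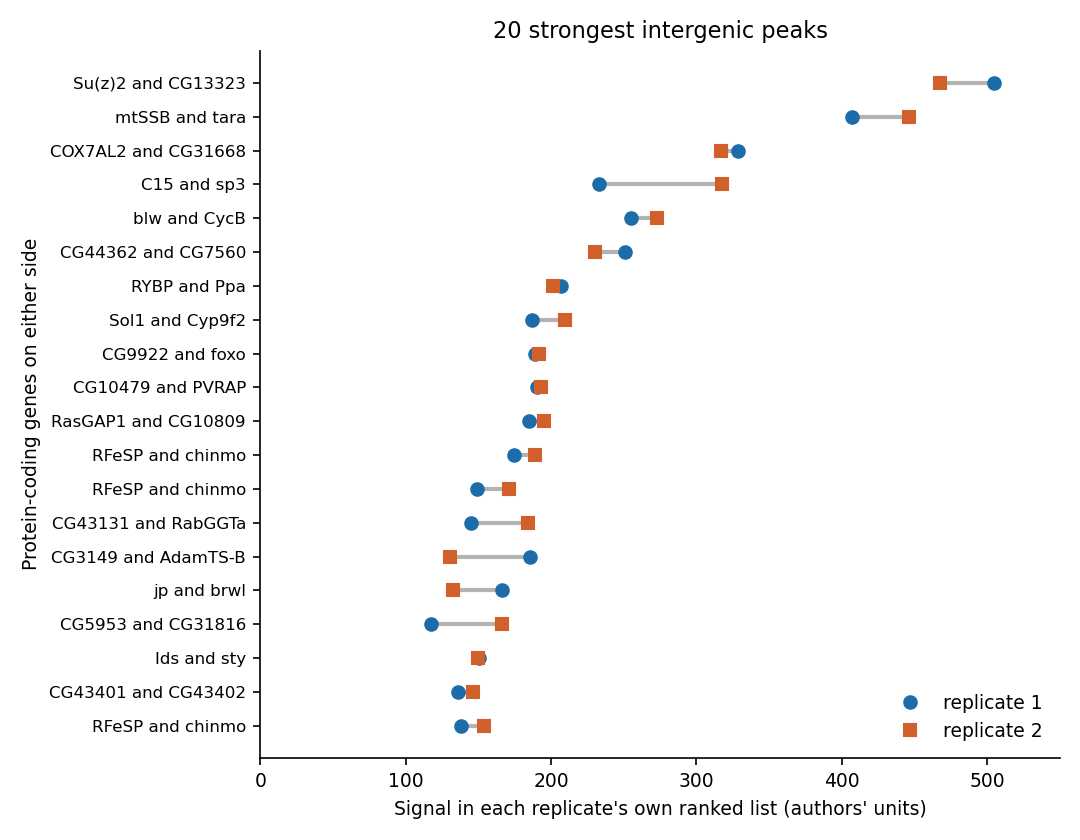
Signal in replicate 1 (circles) and replicate 2 (squares), in the authors' units, at the 20 strongest members, each labelled by the protein-coding genes on either side. Grey lines join the replicates. All 20 have values above 110 in both, and the top member, between Su(z)2 and CG13323, has 505 and 468.

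Most gaps held no member, as had to be so with far fewer members than gaps. Of 6615 gaps between genes with eligible sequence, 347 held a member, 5.25%. Of these 266 held 1, 55 held 2 and 26 held 3 or more, and the last group accounted for 100 members. Neighbouring members in 1 gap were a median of 2178 bp apart, and 43 of 129 such pairs were under 1000 bp apart. The spread over gaps expected from their eligible length was not computed, so no gathering is read from these counts.

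The gap with the most members, 8, ran from tRNA:Ile-TAT-1-2 to CG13898 on 3L over 32964 bp. Their signals ran from 55.1 to 254, the strongest being 121 in replicate 1 and 128 in replicate 2. The gap from NijA, a ninjurin gene, to CG43245, also on 3L, held 7 members over 75047 bp, from 59.2 to 196. A gap from CR44363 to CG7560 held 6, from 83.8 to 482, all within 7652 bp. The gap between CR44603 and CR45695, beside chinmo, held 5, from 63.3 to 370. Another 5 lay downstream of vvl, a POU domain gene of neurons and trachea, from 59.8 to 175. The gap between CR44730 and CR44731 on the other side of noc held 5, from 6.81 to 132, of which the weakest overlapped a stronger neighbour. None of the 8 members between tRNA:Ile-TAT-1-2 and CG13898 had TAATTA within 50 bp of the summit, and 1 each of the 7 and the 6 did.

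Gaps next to each other made longer runs. Joining members no more than 15 kb apart gave 314 runs, of which 230 held a single member and 9 held 5 or more. The largest run, on 3L from 756610 to 822080 around hng3 and CG13898, held 14 members in 65.5 kb. Only 2 of the 16 conservative peaks within it were not members. The run at chinmo held 10 in 33.8 kb and the run at NijA 9 in 48.7 kb. On 2L, 3 runs of 5 members each lay around noc and the genes next to it, between 14458354 and 14557006. All 9 runs with 5 or more were on 3L or 2L, the arms with the highest density of members.

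Density fell with the length of the gap. Gaps of up to 2 kb held 27.7 members per Mb of eligible sequence, gaps of 10 to 20 kb 16.5 and gaps over 50 kb 1.70. Gaps over 50 kb made up 28.9% of eligible sequence and held 19 members, 3.99% (interval 2.42 to 6.16). Eligible sequence counts every called base, among them 2.34 Mb on Y with 1 member and 1.35 Mb at chromosome ends with 0. How well reads map to eligible sequence was not examined, so the fall is not read as a property of gap length itself. Divergent gaps, in which both genes point away, held 17.7 members per Mb, convergent gaps 11.0 and tandem gaps 11.7. By arm, members were 21.1% of the conservative peaks on 3L (interval 18.2 to 24.3), 20.4% on 2L (17.2 to 23.9), 12.4% on 3R (10.1 to 15.1), 11.7% on 2R (9.18 to 14.7) and 8.40% on X (6.34 to 10.9). Per Mb of eligible sequence the order was 2L with 17.6, 3L with 17.0, 3R with 11.4, X with 9.91 and 2R with 8.86. The neighbours 2L and 3L in that order have overlapping intervals as shares of peaks. Chromosome 4 had no member among 2 conservative peaks, and the single conservative peak on Y, beside Su(Ste) repeats, was a member with a signal of 49.96 (27.2 and 26.1).

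**Figure D5:**
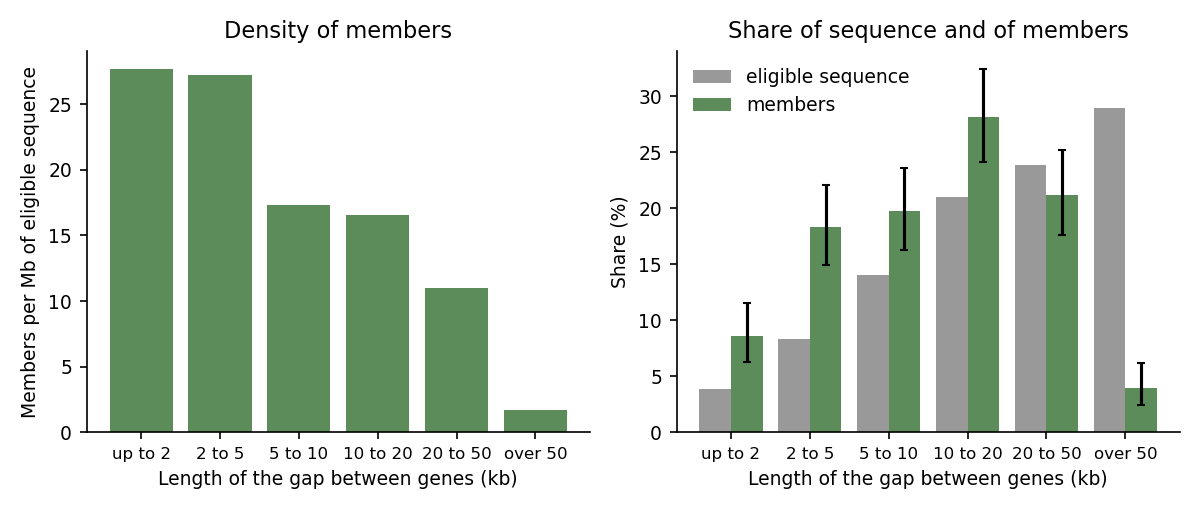
Left, members per Mb of eligible sequence by the length in kb of the gap between genes. Right, the share in percent of eligible sequence (grey) and of the 476 members (green) in each class of gap length, with exact binomial 95% intervals as error bars. Density falls from 27.7 per Mb in gaps of up to 2 kb to 1.70 in gaps over 50 kb. How well reads map to the sequence of each class was not examined.

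Most members lay within a few kb of a start site. The median distance to the nearest start site was 3128 bp, from 501 to 119363 bp, and the median to the nearest protein-coding start site was 4349 bp. The nearest start site had the member upstream of it in 293 cases, 61.6% (interval 57.0 to 65.9). A summit outside genes can lie downstream of a start site only beyond the end of that gene, which by itself favours the upstream side. The share was not computed over eligible sequence, so no preference is read from it. Members 500 to 1000 bp from a start site had a median signal of 93.9, and 35 of 73 were in both own lists, 47.9% (36.1 to 59.96). Those 2000 to 5000 bp away had 73.7, and 42 of 160 were, 26.3% (19.6 to 33.8). Beyond 10 kb the median was 81.9 and 22 of 56 were in both, 39.3% (26.5 to 53.2), so neither measure kept falling with distance.

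The limit of the rule fell among similar peaks. Just inside it were a member 501 bp from a start site of E(spl)m2-BFM, a Notch target of the Bearded family, with a signal of 107, and the member 505 bp from CG10479 with 381. Just outside were peaks 499 bp from CG17896 with 231 and 499 bp from CrebA, a bZIP gene of secretory organs, with 54.4. At the far end, a member on 2R between MFS17 and CG41378 lay 119363 bp from any start site, with a signal of 55.8 (28.3 and 29.1), and was in neither own list. The next were 2 neighbouring members between NijA and CG43245, 37211 and 36677 bp away, with 93.5 (37.9 and 50.6) and 74.8 (35.4 and 44.7).

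Noncoding genes were frequent neighbours. At least 1 flanking gene was not protein-coding for 267 members, 56.1% (interval 51.5 to 60.6). Both flanking genes were protein-coding for the other 209, 43.9% (39.4 to 48.5), against 45.1% of eligible sequence. The share of members with any noncoding flank was thus close to that of the sequence. Antisense or long noncoding RNA genes flanked 244, 51.3% (46.7 to 55.8), whereas 39.1% of eligible sequence had such a flank. Transfer RNA genes flanked 21, 4.41% (2.75 to 6.67), against 1.47% of eligible sequence. Of the 21, 8 were in the single gap from tRNA:Ile-TAT-1-2 to CG13898 and 2 in the nearby gap from hng3 to tRNA:Ile-TAT-1-1. The strongest of these were the member upstream of foxo and a member between tRNA:Phe-GAA-1-7 and tal-1A, with 257 pooled and 123 in each replicate. A microRNA gene flanked 1 member, between CG14762 and mir-4981, with 191 (92.3 and 93.8).

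A list of 21 Polycomb and Trithorax group genes, which keep developmental genes off or on, flanked 6 members. For 2 of the 6 the nearest protein-coding start site was that of a list gene. The list does not hold tara, which is counted with the wing and appendage genes. The 6 were 1.26% of members (interval 0.464 to 2.72), against 0.220% of eligible sequence. Of the 6, 5 were in both own lists, and their median signal was 160, against 81.5 for all members. Beside the peak near Su(z)2, they included a member past the end of Psc, its paralogue, with 280 (167 and 127) and 2 further members around Psc with 138 and 50.6. A member between ph-d and ph-p, the polyhomeotic genes, had 182 (62.8 and 107), and a member next to lola and psq had 117 (63.6 and 51.4). Su(z)2 and Psc lie near each other on 2R, so the 4 members around them share a locus.

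Wing and appendage selector genes flanked 23 members, 4.83% (interval 3.09 to 7.16), against 1.94% of eligible sequence, with a median signal of 82.8 and 8 in both own lists. Few loci held most of them: 10 were at noc, 5 at Doc1 or Doc2 and 3 at tara, 18 of the 23, and the weakest at noc (6.81) overlapped a stronger member. Those near tara, noc, Doc1 and Doc2 were the strongest, the member between Doc1 and Argk2 having 204 (96.2 and 105). Genes placed downstream of ap by genetics flanked 11, 2.31% (1.16 to 4.10), against 1.12% of eligible sequence, and 2 of the 11 were in both own lists. Of those 11, 5 were at vvl, the strongest with 175 (102 and 74.7), and another was a member next to Dr, a homeobox gene, with 102 (43.2 and 52.8). Dr had 2 further members (81.7 and 71.9), and the remaining 3 were 2 at caps, a leucine-rich repeat adhesion gene, and 1 at fng, which modifies Notch.

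Other developmental lists had counts of the same order. Segmentation factors flanked 18 members with a median of 76.2, led by slp1 and slp2. Muscle and heart identity factors flanked 13, led by mid, a T-box gene (169), and zfh1, a zinc finger and homeobox gene (150.3). Neuronal fate factors flanked 11, led by SoxN (143). Receptor kinase and growth factor genes flanked 11, led by sty and by aop, the ETS repressor Yan (256). Hedgehog and Wingless genes flanked 5, led by ptc, the Hedgehog receptor gene (242, with 134 and 107), and by the gap between Wnt4 and wg (119). Notch pathway genes flanked 5, the strongest between E(spl)mbeta-HLH and E(spl)malpha-BFM (192). Hox genes flanked 2, next to abd-A (203) and between Dfd and Scr (59.6), and Dpp signalling genes 2, at sog (83.4) and dpp (61.8). As background, all members together stood at 12.3 per Mb, and these lists ranged from 16.7 per Mb for Hox genes to 38.0 for Notch genes. That background was not matched for gap length, with 27.7 per Mb in gaps up to 2000 bp and 1.70 in gaps over 50000 bp. Whether any list exceeds gaps of similar length was not tested.

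In 4 lists the share of members was below that of sequence, with the sequence share inside the members' interval in each. Axon guidance and adhesion genes flanked 9, 1.89% (interval 0.868 to 3.56), against 3.09% of eligible sequence, led by 18w, a Toll family gene (161), and caps (87.6). Chemoreceptor genes flanked 9, 1.89% (0.868 to 3.56), against 3.03%, led by Gr89a and by Or67d, a pheromone receptor gene (97.6). The latter member lay 116542 bp from Or67d, which is only the nearest protein-coding gene on that side. Its nearest genes of any kind were the noncoding CR45245 and CR44543. Ribosomal protein genes flanked 3, 0.630% (0.130 to 1.83), against 1.51%, led by RpLP0 (77.4) and RpL22-like (64.6), and none of the 3 was in both own lists. MicroRNA genes flanked the 1 member named above, 0.210% (0.00532 to 1.16), against 1.13%. Cell cycle and chromatin genes also flanked 1, the peak at CycB, but made up 0.0491% of eligible sequence. Of the 19 lists, several share genes and members, so their counts are not independent.

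The ap gene itself had 4 members in the gap of 26991 bp on 2R that separates its start from that of the neighbouring gene. The strongest, 7019 bp upstream of the ap start site, had a signal of 72.2, with 44.0 in replicate 1 and 33.2 in replicate 2, and was thresholded in replicate 1 alone. A member overlapping it had 4.49 and shares its replicate values. Those 20435 and 25124 bp upstream of ap had 56.8 (27.8 and 26.6) and 56.9 (29.8 and 26.2), and were in neither own list. They lay 6557 and 1868 bp upstream of the neighbouring gene. None of the 4 had TAATTA within 50 bp of the summit. The LIM homeodomain list as a whole had 7 members, 1.47% (interval 0.593 to 3.01), against 0.561% of eligible sequence. The other 3 were 2 at tup, an Islet-type gene (103 and 68.0), and 1 at Awh (72.1). None of the 7 was in both own lists, against 35.7% of all members, and with so few members nothing is read from that.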

How the data were processed

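ENCODE deposited peak lists for assembly dm6, per the labels. The aligner and the peak caller with their settings: not given in the sources used here. Each peak has the authors' deposited signal, used only to describe and rank peaks, a deposited score, which is a scaled irreproducible discovery rate (IDR) from 830 to 1000 in the conservative list, and a deposited summit offset. The ranked lists add a deposited −log10 IDR, not used for any result. Columns of the pooled ranked lists that hold values per replicate were not used, because no header names the replicate; a replicate's signal at a peak is the highest among its own ranked peaks that overlap it by at least 1 bp. A member counts as being in an own list when a thresholded peak of that replicate overlaps it. Replicate 1 had 1977 thresholded peaks on the assembled chromosomes and replicate 2 had 2210. A total of 17 conservative peaks on other scaffolds were left out.

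Genes are those of Ensembl release 115 (18277 without transposable elements, 13968 of them protein-coding) and sequences those of RefSeq release 6. Flanking genes for the gene lists are the nearest protein-coding genes on each side, or for noncoding lists the nearest genes of any kind. Peaks are not replicates, so no test was made over them; shares have exact binomial 95% intervals, which cover the counting of peaks only. Members, the 19 gene lists, the 12 motifs and the comparisons were chosen with earlier results of these data known. Genes named are the neighbours of the 20 strongest members, of the 6 gaps with most members, of ap, and of the 2 strongest members per list, besides the extremes of distance and of the replicate ratio; genes named outside this rule were chosen after their values were seen. The labels name possible controls, which were not analysed here. The counting steps were checked on made-up genes, peaks and words. Python 3.11.15, numpy 2.4.6, pandas 2.3.3, scipy 1.17.1 and matplotlib 3.10.9 were used.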

Additional observations from a re-analysis of the deposited data

Results flagged for a closer look

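The conservative list also holds 17 peaks on scaffolds outside the assembled chromosomes, which no comparison used. They had a median signal of 91.6, from 63.0 to 285, and were noticed because they carry signal in sequence that the analysis left out. Whether they lie between genes was not examined.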

How the results depend on the processing

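No paired analysis was possible because there is 1 group. The number of members moved with the distance asked from start sites: 18.7% of conservative peaks were members over 250 bp, 12.7% over 1000 bp and 301 peaks, 9.45%, over 2000 bp. With protein-coding genes only the share was 18.4%. Among the stronger 1592 conservative peaks there were 182, 11.4%. In the replicates' own lists there were 249 to 288, or 12.6 to 13.0% of the lists. The share with TAATTA was 5.67% within 25 bp of the summit and 18.1% within 100 bp. The share with CACTGAGA was 3.78% within 50 bp and 11.97% within 150 bp, and it was 10.4 to 11.1% in the own lists. The share with CCACTGT was 1.68% within 50 bp, 12.4% within 150 bp and 9.72 to 10.4% in the own lists. These alternatives for the words, and leaving out members that overlap a stronger peak, were chosen after seeing the data. The number of members was 595, 403 and 587 at 250 bp, at 1000 bp and with protein-coding genes only. Of 53 recomputed values, a setting giving a value for each result it touches, 36 stayed within 1.5 times for counts or within the interval or spread for others, among them those with transposable elements counted as genes, the less strict pooled list, merged peaks, other overlaps between lists and other GC windows. Summits sit at the middle of the listed peak in 421 of 476 members, which limits how finely a word can be placed.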
